A study of Rattus norvegicus with 27 samples.

Results

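The hearts of rats exposed to fine particles were compared with those of rats exposed to ultrafine particles, the 2 smaller of 3 airborne size classes in a study that also held filtered air controls and rats exposed to coarse particles. The comparison used 14 of the 27 arrays of the study, the 6 labelled as fine and the 8 labelled as ultrafine, chosen by the exposure named in each array's label, and it was run over every probe that passed the filter on dim probes. All rats were male Fisher 344 animals that were 4 weeks old when exposure began and were exposed during 3 months, so age, sex, strain and duration were shared by all 4 groups. Total RNA of the heart was hybridised as biotin-labelled cRNA to rat bead arrays, and each array was taken as 1 rat. The composition and dose of the particles, the chips and scan dates, the feeding state of the rats and the hour of sampling are not stated in the labels. The other 13 arrays, 7 of filtered air and 6 of coarse particles, served to estimate the spread within groups and as reference levels.

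The working heart takes most of its energy from fatty acids and the rest mainly from glucose, lactate and ketone bodies, and it shifts between these fuels with supply. Fatty acids cross the capillary wall, are bound to coenzyme A and carried into mitochondria by carnitine transferases for oxidation, and many genes of this route are targets of the fatty acid receptor PPAR alpha. Glucose enters through the transporters encoded by Slc2a4 and Slc2a1, is trapped by hexokinase and, after glycolysis, is admitted to oxidation by the pyruvate dehydrogenase complex, which the kinase encoded by Pdk4 switches off.

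Fine particle hearts had lower levels than ultrafine particle hearts of several genes of fatty acid use, of Pdk4 and of Txnip, and higher levels of the glucose transporter gene Slc2a4, the tubulin genes Tuba8 and Tuba4a and the Z-disc gene Fbxl22. Pdk4 was 3.30-fold lower, the retinol-binding protein gene Rbp7 2.40-fold lower and Txnip 2.14-fold lower, while the tubulin gene Tuba8 was 1.85-fold and Slc2a4 1.69-fold higher. These values are for 5 fine and 5 ultrafine arrays, after arrays that stood apart from the rest were left out. All 5 differences between the groups kept their sign when all 14 arrays were used. Single arrays did not all follow, as ultrafine 7 lay below every fine array for Pdk4, and ultrafine 7 and 8 did so for Rbp7. With no array left out, Txnip and Tuba8 passed an adjusted p of 0.05 (0.0116 and 0.0101, limma). Pdk4, Rbp7, Slc2a4 and Tuba4a did not (0.11, 0.409, 0.0721 and 0.113, limma). Of 31 measured genes of fatty acid use, 8 passed in the smaller set, and 1, Acot1, passed with no array left out. Of those 8, Ech1 and Cd36 turned sign with no array left out, to 0.10 and 0.22. Levels are the log2 values of the deposited table, differences are given as fine minus ultrafine, and folds are on that table's scale.

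Of the 14 arrays, 4 stood apart. The mean of 18 lymphocyte and thymocyte marker genes was 7.67 on fine 2, while ultrafine 2 read 9.16 and ultrafine 7 read 9.55, against 6.11 to 6.84 on the other 11. These 3 arrays lay 7.55, 15.95 and 18.17 scaled median absolute deviations higher than the 27-array median, beyond the limit of 3, and fine 4 lay just inside it at 2.88. Ultrafine 8 stood apart in another way, with a median correlation of 0.913 to the other arrays, under the limit of 0.949, and 260 probes more than 2 log2 units below the median of the others and 0 above. The same rule left out filtered air 1 and coarse 1, 2 and 5, so the smaller set held 19 arrays, namely 5 fine, 5 ultrafine, 6 filtered air and 3 coarse arrays. Of 5 markers of heart muscle, Myh6, Tnni3, Tnnt2 and Myl2 were bright on all 14 arrays, at 10.96 or more: Tnni3, encoding cardiac troponin I, ran from 13.14 to 13.97 and Tnnt2, encoding cardiac troponin T, from 12.67 to 14.17. Actc1, the cardiac actin gene, was dim, at 6.21 to 7.43. Ryr2 and Pln, also muscle markers, were not analysed here. Since whole hearts were measured, fewer cells of a type and less RNA per cell cannot be told apart in any value that follows.

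In the 27-array fit, 23 of 11657 probes differed between fine and ultrafine hearts at an adjusted p under 0.05, called differences from here on (limma with Benjamini-Hochberg adjustment, 0.197% of probes). Of these, 12 were higher and 11 lower with fine particles, and the groups did not overlap for 17 of the 23, where 0.463% of all probes did not overlap with fine higher and 0.137% with fine lower. In the 19-array fit 131 probes were called, 67 higher and 64 lower with fine particles (1.12% of probes), and the groups did not overlap for 111 of them. Here non-overlap was found for 1.69% of all probes with fine higher and 1.18% with fine lower. A fold over 1.5 at an adjusted p under 0.05 was reached by 5 probes in the 27 arrays (0.0429%) and 26 in the 19 (0.223%), and at an adjusted p under 0.25 by 67 (0.575%) and 36 (0.309%). All 23 probes of the first count had the same sign in the 19 arrays and 16 were called there, and 126 of the 131 had the same sign in the 27 arrays. Of the 131 probes, 103 had a gene symbol and 28 did not. The differences of the 131 ran from 0.21 to 1.72 log2 units in size, against a median size of 0.07 over all probes. The median difference over all probes was 0.00 in both fits.

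The 2 counts depended on single arrays. In the 27-array fit the count fell to 7 without fine 4, 8 without fine 5, 10 without fine 1, 12 without ultrafine 2 and 15 without fine 3, ultrafine 1 or ultrafine 3, and it rose to 60 without ultrafine 8, 62 without ultrafine 4 and 168 without ultrafine 5. In the 19-array fit it lay between 54 without fine 4 and 446 without ultrafine 5. It was 60 without ultrafine 3, 79 without fine 6, 80 without fine 5 or ultrafine 1, 84 without fine 1 or ultrafine 6, and 87 without fine 3. Ultrafine 5 had the highest means of the skeletal muscle, platelet and red cell marker lists among the 14 arrays, at 8.05, 7.78 and 9.46. On the other 13 arrays these means reached at most 7.62, 7.34 and 9.13. The part of these markers in the counts was not tested.

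**Figure D1:**
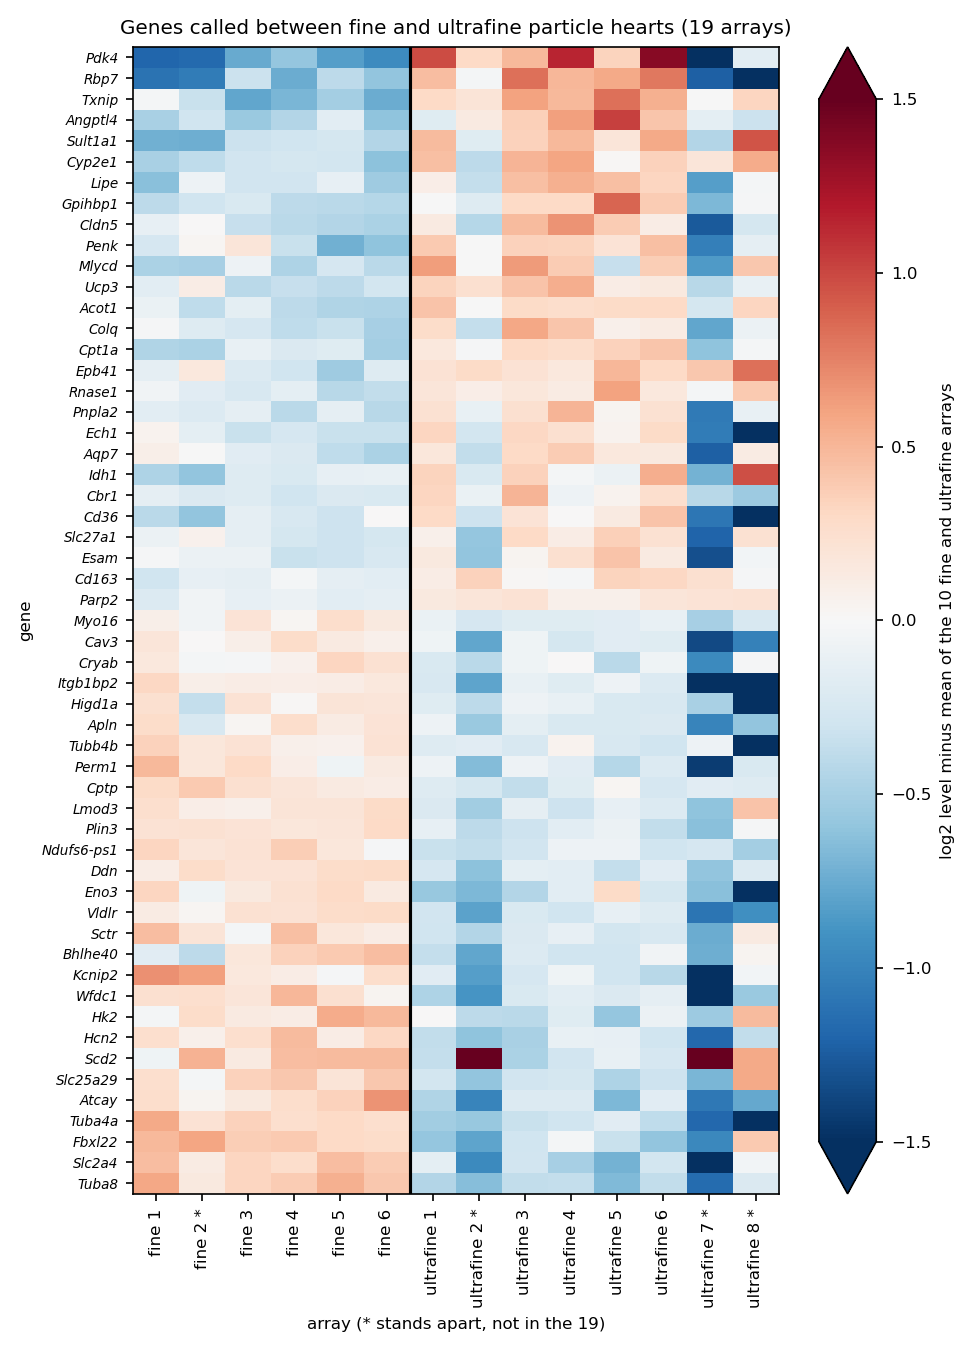
Each row is a gene named in the text and called in the 19-array fit, ordered by its difference, and each column is 1 array. Colour gives the log2 level minus the gene's mean over the 10 fine and ultrafine arrays that did not stand apart, and the arrays with an asterisk stood apart. Rows from Pdk4 to Parp2 are lower and rows from Myo16 to Tuba8 higher with fine particles, and ultrafine 7 and 8 hold many of the values beyond the ends of the colour scale.

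Among genes of fatty acid oxidation and targets of PPAR alpha, all that passed the test were lower with fine particles. Of 31 measured genes of this list, 8 were called lower and 0 higher in the 19 arrays, beside 0.549% and 0.575% of all probes, and 27 of the 31 had a negative difference. The median difference of the list was -0.27, beside 0.00 for all probes. In the 27 arrays 1 member was called lower, Acot1, beside 0.0944% of all probes, and the median was -0.11.

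Acot1, which encodes a cytosolic enzyme that splits fatty acyl-CoA, read 6.27, 6.22, 5.97, 5.91 and 5.90 on fine 1, 3, 4, 5 and 6, and 6.79, 6.65, 6.63, 6.65 and 6.66 on ultrafine 1, 3, 4, 5 and 6. Every fine array lay below every ultrafine array, and the difference was -0.62 with a standard error of 0.07 (adjusted p 4.88e-05, limma). Over the 14 arrays the fine levels ran from 5.90 to 6.27 with a median of 5.98 and the ultrafine levels from 6.10 to 6.79 with a median of 6.65. The groups then overlapped, through ultrafine 7, and the difference was -0.53 (adjusted p 0.0163, limma). This call was lost without fine 4 or fine 5, at an adjusted p of up to 0.0548, and held without each of the other 12 arrays.

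Ucp3, which encodes a mitochondrial carrier that follows fatty acid supply, read 6.17, 5.93, 5.99, 5.94 and 6.05 on the 5 fine arrays and 6.67, 6.76, 6.88, 6.44 and 6.48 on the 5 ultrafine arrays. The groups did not overlap in these arrays, and the difference was -0.63 with a standard error of 0.09 (adjusted p 0.000903, limma). In all 14 arrays the difference was -0.41 (adjusted p 0.129, limma), with ultrafine 7 at 5.92 and fine 2 at 6.44.

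Ech1, an auxiliary enzyme for unsaturated fatty acids, read 12.28 to 12.67 in the 5 fine arrays and 12.66 to 12.93 in the 5 ultrafine arrays. The groups met at fine 1 and ultrafine 5, and the difference was -0.48 with a standard error of 0.08 (adjusted p 0.00339, limma). With the other 4 arrays the sign turned to 0.10, as ultrafine 7 read 11.57 and ultrafine 8 read 10.18. The fatty acid transporter gene Cd36 did the same, at -0.43 in the 19 arrays (adjusted p 0.0334, limma) and 0.22 in the 27, with ultrafine 8 at 8.32.

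Angptl4, whose product inhibits lipoprotein lipase, was dim, at 5.59 to 6.03 on the 5 fine arrays and 6.01 to 7.22 on the 5 ultrafine arrays. Fine 5 lay above ultrafine 1, and the difference was -0.90 with a standard error of 0.16 (adjusted p 0.00634, limma). A second Angptl4 probe, with a mean level of 5.78, was below the filter and differed by -0.07. Cpt1a, the carnitine transferase isoform best known from liver, stood at -0.59 with non-overlapping groups (adjusted p 0.00739, limma). Mlycd, which encodes the enzyme that degrades malonyl-CoA, an inhibitor of that transferase, stood at -0.67 with an overlap at ultrafine 5 (adjusted p 0.0236, limma). The fatty acid transporter gene Slc27a1 stood at -0.43 with no overlap (adjusted p 0.0202, limma). Angptl4, Cpt1a, Mlycd and Slc27a1 stood at -0.66, -0.43, -0.52 and -0.11 in the 27 arrays, and none was called (adjusted p 0.108, 0.143, 0.279 and 0.856, limma). The calls of Acot1, Ucp3, Ech1, Angptl4 and Cpt1a held in all 10 fits of the 19-array set that left out 1 fine or ultrafine array. Those of Mlycd, Slc27a1 and Cd36 held in 4, 6 and 3 of the 10 such fits, with an adjusted p of up to 0.0849, 0.0650 and 0.0925. All 3 were lost without fine 4 and without ultrafine 3, and each without at least 2 of fine 1, 5 and 6 and ultrafine 1 and 6.

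The core enzymes of beta oxidation passed the test in neither direction. Acadl, the long-chain dehydrogenase gene, stood at -0.30 with a standard error of 0.15 and Acadm, its medium-chain partner, at -0.31 with a standard error of 0.24. Cpt1b, the carnitine transferase isoform of muscle, stood at -0.14 with a standard error of 0.12 and Fabp3, the fatty acid-binding protein of heart, at -0.05 with a standard error of 0.13. The regulators were close to equal: Ppara, which encodes PPAR alpha itself, stood at 0.08 with a standard error of 0.05 and its coactivator gene Ppargc1a at 0.00 with a standard error of 0.12. The mean of the 31 genes was 9.57, 9.63, 9.46, 9.63 and 9.64 on fine 1, 3, 4, 5 and 6, and 10.03, 10.06, 9.84, 9.43 and 9.98 on ultrafine 1, 3, 4, 5 and 6. Ultrafine 5 was thus the lowest of the 10, while the other 4 ultrafine arrays lay above every fine array. On the arrays that stood apart it was 9.28 on fine 2 and 9.40, 8.82 and 9.63 on ultrafine 2, 7 and 8.

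**Figure D2:**
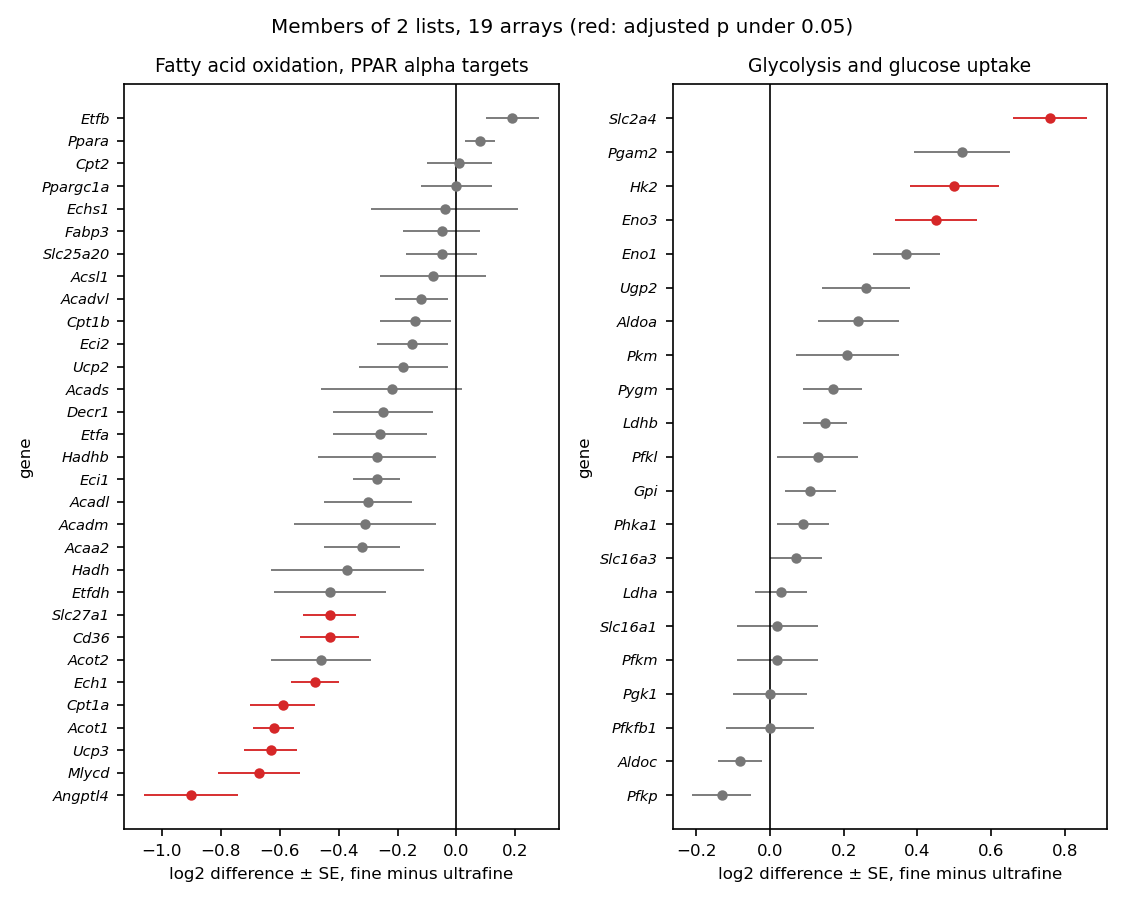
Points give the log2 difference, fine minus ultrafine, with its standard error for each measured gene of 2 lists in the 19-array fit, and red marks an adjusted p under 0.05. The 8 red genes of the fatty acid list lie left of 0, and the 3 red genes of the glucose list, Slc2a4, Hk2 and Eno3, lie right of it.

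The starts of 4 genes with large differences are shown, since members that moved together invite a look at shared motifs. The window covers 250 bases before to 50 after the annotated start, from RefSeq on build GRCr8, and capitals mark AGGTCA or its reverse complement TGACCT, the half-site that nuclear receptors such as the PPARs bind in pairs. Pdk4 lies at chr4:34568280-34568579 on the minus strand, Ucp3 at chr1:164227660-164227959 and Cyp2e1 at chr1:205269717-205270016 on the plus strand, and Tuba8 at chr4:156112022-156112321 on the plus strand.
Pdk4: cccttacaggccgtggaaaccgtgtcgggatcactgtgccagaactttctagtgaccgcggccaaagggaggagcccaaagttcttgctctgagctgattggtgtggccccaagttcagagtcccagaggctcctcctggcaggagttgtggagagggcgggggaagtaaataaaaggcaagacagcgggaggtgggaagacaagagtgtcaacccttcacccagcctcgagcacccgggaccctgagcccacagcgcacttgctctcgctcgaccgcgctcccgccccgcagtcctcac
Ucp3: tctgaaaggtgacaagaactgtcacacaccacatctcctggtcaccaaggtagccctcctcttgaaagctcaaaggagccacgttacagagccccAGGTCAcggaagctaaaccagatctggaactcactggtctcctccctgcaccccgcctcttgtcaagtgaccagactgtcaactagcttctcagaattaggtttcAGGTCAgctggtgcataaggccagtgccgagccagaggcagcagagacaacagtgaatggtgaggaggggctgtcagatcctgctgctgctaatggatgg
Cyp2e1: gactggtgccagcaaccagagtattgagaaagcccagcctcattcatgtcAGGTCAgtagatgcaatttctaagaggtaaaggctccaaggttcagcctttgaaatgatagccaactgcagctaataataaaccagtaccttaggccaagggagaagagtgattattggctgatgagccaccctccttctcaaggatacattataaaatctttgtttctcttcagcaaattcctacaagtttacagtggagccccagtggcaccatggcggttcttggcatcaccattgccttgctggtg
Tuba8: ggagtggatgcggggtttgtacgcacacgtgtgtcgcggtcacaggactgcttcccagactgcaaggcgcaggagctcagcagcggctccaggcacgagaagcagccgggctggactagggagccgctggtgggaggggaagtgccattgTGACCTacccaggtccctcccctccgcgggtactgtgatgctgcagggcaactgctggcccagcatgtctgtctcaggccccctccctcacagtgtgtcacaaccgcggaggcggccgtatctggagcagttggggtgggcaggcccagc
The half-site was found at positions -155 and -50 from the start in Ucp3, at -200 in Cyp2e1 and, on the opposite strand, at -100 in Tuba8, and not within these letters in Pdk4. On both strands together it was held by 16.2% of 33469 promoter windows of the same length. It was held by 7 of 40 matched genes called lower, 7 of 40 called higher and 7 of 26 in the fatty acid oxidation list. The direct repeat of 2 such half-sites with any 1 base between them, searched on both strands and overlapping the half-site by definition, was held by 0.0538% of all windows and by 0 of the 40, 40 and 26. CACGTG, the E-box letters, was held by 6.42% of all windows, by 6 of the 40 genes called higher and by 0 of the 40 called lower. A match of letters describes the window and is not evidence of a bound factor.

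Pdk4 had the largest difference of all called probes. It read 7.59, 8.03, 8.20, 7.96 and 7.84 on fine 1, 3, 4, 5 and 6, and 9.76, 9.27, 9.93, 9.12 and 10.15 on ultrafine 1, 3, 4, 5 and 6. The highest fine array lay almost 1 log2 unit below the lowest of these ultrafine arrays, and the difference was -1.72 with a standard error of 0.24 (adjusted p 0.00085, limma). In all 14 arrays the fine levels ran from 7.59 to 8.20 with a median of 7.90, and the ultrafine levels from 7.25 to 10.15 with a median of 9.20. The lowest ultrafine value came from ultrafine 7, which stood apart, and the difference of -1.27 with a standard error of 0.34 did not pass (adjusted p 0.11, limma). Of the 14 genes of the pyruvate dehydrogenase complex and its regulators, Pdk4 was the only one called, in the 19 arrays, beside 0.549% of all probes called lower. Pdp2, a phosphatase that opposes the kinases, stood at 0.47 with a standard error of 0.14 (adjusted p 0.113, limma), and Pdk2, another of the kinases, at 0.26 with a standard error of 0.09.

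Txnip, which encodes an arrestin-like protein that lowers glucose uptake, was the gene of this group called in both sets of arrays. It read 12.05, 11.30, 11.39, 11.57 and 11.34 on the 5 fine arrays and 12.38, 12.68, 12.57, 12.91 and 12.62 on the 5 ultrafine arrays. No fine array reached an ultrafine array, and the difference was -1.10 with a standard error of 0.16 (adjusted p 0.000903, limma). Over the 14 arrays fine levels ran from 11.30 to 12.05 with a median of 11.48 and ultrafine levels from 12.08 to 12.91 with a median of 12.48. The groups still did not overlap, and the difference was -0.92 with a standard error of 0.16 (adjusted p 0.0116, limma, and 0.0517 without fine 4).

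Genes of glycolysis and glucose uptake lay mostly on the other side. Of 21 measured genes 18 had a positive difference in each fit, and the median was 0.13 in the 19 arrays and 0.31 in the 27. In the 19 arrays 3 were called higher and 0 lower, beside 0.575% and 0.549% of all probes, and in the 27 arrays 0 were called, with 8 at an unadjusted p under 0.05 and all 8 higher, where 12.1% of all probes reached that p in either direction. Slc2a4, the insulin-responsive glucose transporter gene, read 9.97, 9.83, 9.77, 9.97 and 9.88 on the 5 fine arrays and 9.36, 9.22, 9.01, 8.80 and 9.23 on the 5 ultrafine arrays. Fine was above ultrafine without overlap, and the difference was 0.76 with a standard error of 0.10 (adjusted p 0.000345, limma). Across all 14 the groups also did not overlap, at 9.63 to 9.97 and 7.76 to 9.46, and the difference of 0.92 with a standard error of 0.22 did not pass (adjusted p 0.0721, limma).

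Hk2, the hexokinase isoform of muscle, and Eno3, the enolase isoform of muscle, had smaller differences. Hk2 read 6.68 to 7.26 in the 5 fine arrays and 6.13 to 6.71 in the 5 ultrafine arrays, with an overlap between fine 1 and ultrafine 1, and the difference was 0.50 with a standard error of 0.12 (adjusted p 0.0397, limma). Eno3 read 10.92 to 11.11 in the 5 fine arrays and 10.22 to 11.07 in the 5 ultrafine arrays, with ultrafine 5 among the fine values, and the difference was 0.45 with a standard error of 0.11 (adjusted p 0.0456, limma). Both calls were fragile: that of Hk2 was lost without any of fine 3, 4, 5 and 6 and ultrafine 3 and 4, with an adjusted p of up to 0.116, and that of Eno3 without any of the 10 arrays but ultrafine 5, with an adjusted p of up to 0.135. Hk2 and Eno3 stood at 0.46 and 0.88 in the 27 arrays and were not called (adjusted p 0.16 and 0.233, limma). Pgam2 and Eno1, also of glycolysis, were not called in the 19 arrays and stood at 0.52 and 0.37 with an adjusted p of 0.0563 each (limma), while Pfkm, Pgk1 and Ldha stood at 0.02, 0.00 and 0.03. The mean of the 21 genes was 9.41 to 9.47 on the 5 fine arrays and 9.22 to 9.34 on the 5 ultrafine arrays, and did not overlap between them.

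**Figure D3:**
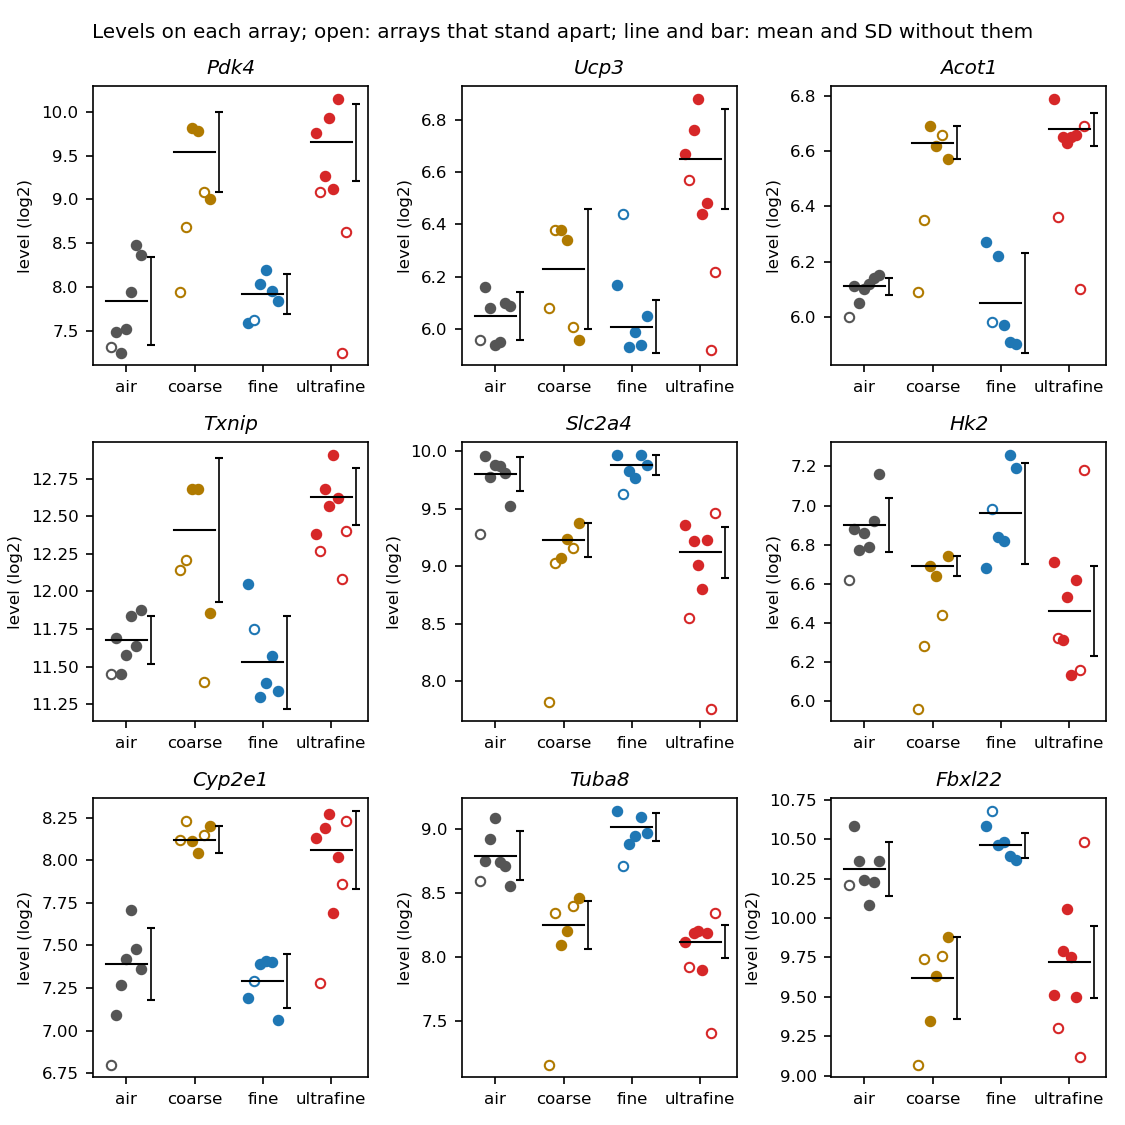
Each point is 1 array, with filled points for the 19 arrays and open points for those that stood apart, and the vertical axis is the log2 level in the deposited table. The line is the mean and the bar the SD of the filled points. For Pdk4, Txnip, Slc2a4, Cyp2e1 and Tuba8 the filled fine points lie apart from the filled ultrafine points and near the filtered air points.

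Among genes that free and handle stored fat, most that passed the test were also lower with fine particles. Of 15 measured genes of lipolysis and lipid droplets, 4 were called lower and 1 higher in the 19 arrays, beside 0.549% and 0.575% of all probes, with a median of -0.26. In the 27 arrays the median was 0.01 and Plin3 was the only member called, beside 0.103% of all probes called higher. Lipe, which encodes hormone-sensitive lipase, read 7.38, 7.72, 7.72, 7.89 and 7.48 on the 5 fine arrays and 8.11, 8.46, 8.54, 8.46 and 8.33 on the 5 ultrafine arrays. The groups did not overlap, and the difference was -0.74 with a standard error of 0.14 (adjusted p 0.00888, limma). Pnpla2, the first lipase of stored triglyceride, stood at -0.50 (adjusted p 0.0201, limma) and Aqp7, a glycerol channel, at -0.46 (adjusted p 0.0198, limma). These 2 calls were lost without fine 4, fine 6 or ultrafine 3, and that of Aqp7 also without fine 5, with an adjusted p of up to 0.0645. In the 27 arrays Lipe, Pnpla2 and Aqp7 stood at -0.40, -0.24 and -0.15 and none was called (adjusted p 0.364, 0.607 and 0.769, limma).

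Plin3, which encodes a coat protein of lipid droplets, went the other way and was called in both fits. It read 8.58, 8.57, 8.53, 8.54 and 8.66 on the 5 fine arrays and 8.24, 8.05, 8.20, 8.27 and 7.99 on the 5 ultrafine arrays, with fine 2 at 8.59 and ultrafine 2, 7 and 8 at 7.97, 7.74 and 8.34. Fine was above ultrafine without overlap in all 14 arrays, and the difference was 0.48 with a standard error of 0.08 (adjusted p 0.0101, limma). It was called in every fit of either set that left out 1 array. Scd2, a fatty acid desaturase gene, was higher by 0.59 in the 19 arrays (adjusted p 0.026, limma). In the 27 arrays it stood at -0.04, with ultrafine 2 and 7 at 9.53 and 9.98, and 6 of the 10 fits of the smaller set that left out 1 array lost it, those without fine 4, 5 or 6 or ultrafine 1, 3 or 6 (adjusted p up to 0.0887).

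Rbp7, Cldn5 and Esam, of the endothelial list, and Gpihbp1, of the lipolysis list, were called lower with fine particles in the 19 arrays. Rbp7, a retinol-binding protein gene active in heart capillaries, read 6.86, 7.65, 7.23, 7.58 and 7.38 on the 5 fine arrays and 8.43, 8.80, 8.47, 8.54 and 8.76 on the 5 ultrafine arrays. The groups did not overlap, and the difference was -1.26 with a standard error of 0.13 (adjusted p 4.88e-05, limma). On the arrays that stood apart Rbp7 read 6.92 on fine 2 and 7.94, 6.75 and 6.04 on ultrafine 2, 7 and 8, and the 27-array difference of -0.70 did not pass (adjusted p 0.409, limma). Gpihbp1, whose product anchors lipoprotein lipase on the capillary wall, read 6.66 to 6.86 on the 5 fine arrays and 7.08 to 7.96 on the 5 ultrafine arrays, a difference of -0.74 (adjusted p 0.00121, limma). It stood at -0.47 in the 27 arrays (adjusted p 0.215, limma).

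The junction gene Cldn5 stood at -0.71 (adjusted p 0.00634, limma) and the adhesion gene Esam at -0.40 (adjusted p 0.0198, limma, and up to 0.0626 without fine 4, 5 or 6). Cldn5 stood at -0.27 and Esam at -0.06 in the 27 arrays, and neither was called (adjusted p 0.647 and 0.936, limma). With Rbp7 these were the 3 called among 14 measured endothelial markers in the 19 arrays, all lower, beside 0.549% of all probes, and the median of the 14 was -0.06. Of the 14, 0 were called in the 27 arrays in limma, with 1 at an unadjusted p under 0.05, where 12.1% of all probes reached it. The median was 0.01. Other endothelial markers had smaller differences and were not called: Cdh5, encoding the cadherin of these cells, differed by -0.02, Tie1, a receptor, by -0.12 and Emcn, an endomucin, by -0.13. The mean of the 14 genes was 7.57 to 7.66 on the 5 fine arrays and 7.71 to 7.96 on the 5 ultrafine arrays, without overlap. It was 7.58 on fine 2 and 7.33, 7.05 and 7.81 on ultrafine 2, 7 and 8. This mean includes the 3 called genes and was not taken without them. Whether the share of endothelial cells moved with Rbp7, Cldn5 and Esam was not tested.

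Genes that process foreign chemicals held 3 calls among 10 measured in the 19 arrays, all lower with fine particles, beside 0.549% of all probes, with a median of -0.21. Cyp2e1 was the 1 called in the 27 arrays, beside 0.0944% of all probes called lower, and the median was -0.13. Cyp2e1, which encodes a cytochrome P450 that oxidises small molecules such as ethanol and acetone, read 7.19, 7.39, 7.41, 7.40 and 7.06 on the 5 fine arrays and 8.13, 8.19, 8.27, 7.69 and 8.02 on the 5 ultrafine arrays. The groups did not overlap, and the difference was -0.76 with a standard error of 0.11 (adjusted p 0.00121, limma). In all 14 arrays the difference was -0.66 (adjusted p 0.0227, limma), with an overlap at ultrafine 2, which read 7.28. That call was lost without fine 1, 2, 4, 5 or 6 or ultrafine 1 or 3, at an adjusted p of up to 0.0892, while the call in the 19 arrays held without each array.

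Sult1a1, a phenol sulfotransferase gene, stood at -0.82 (adjusted p 0.0349, limma) and Cbr1, a carbonyl reductase gene, at -0.43 (adjusted p 0.0402, limma). The call of Sult1a1 held in 1 of the 10 fits without 1 array, that without ultrafine 5, with an adjusted p of up to 0.0966. That of Cbr1 held in 2 of them, those without ultrafine 4 or 5, with an adjusted p of up to 0.121. These 2 stood at -0.76 and -0.21 in the 27 arrays and were not called (adjusted p 0.153 and 0.528, limma). Nqo1, a classic target of the Ahr and Nrf2 regulators, differed by 0.14 with a standard error of 0.07. Of 38 measured antioxidant genes and Nrf2 targets 0 were called in the 19 arrays, with 9 at an unadjusted p under 0.05, 3 higher and 6 lower, beside 13.0% of all probes. Hmox1, encoding haem oxygenase, differed by -0.23 with a standard error of 0.08 and Gclm, of glutathione synthesis, by -0.22 with a standard error of 0.10. Idh1, a source of cytosolic NADPH, stood at -0.45 (adjusted p 0.0321, limma), but its call was lost without any of fine 1, 3, 4 and 5 and ultrafine 1, 3 and 6, with an adjusted p of up to 0.099, and it was not called in the 27 arrays (adjusted p 0.357, limma).

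Among the genes called higher, a tubulin gene had the largest difference. Tuba8, an alpha-tubulin gene of muscle, testis and brain, read 9.14, 8.88, 8.94, 9.09 and 8.97 on the 5 fine arrays and 8.12, 8.19, 8.20, 7.90 and 8.19 on the 5 ultrafine arrays. In all 14 arrays the fine levels ran from 8.71 to 9.14 with a median of 8.96 and the ultrafine levels from 7.41 to 8.34 with a median of 8.16. The groups did not overlap in either set, and the difference was 0.89 with a standard error of 0.09 in the 19 arrays (adjusted p 4.88e-05, limma) and 0.92 with a standard error of 0.16 in the 27 (adjusted p 0.0101, limma). It was called in every fit of either set that left out 1 array.

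Of 10 measured alpha- and beta-tubulin genes, gathered by symbol after values were seen, 3 were called in the 19 arrays, all higher, beside 0.575% of all probes. In the 27 arrays 1 was called, Tuba8, beside 0.103% of all probes called higher. Tuba4a, another alpha-tubulin gene, read 12.15, 11.93, 11.84, 11.88 and 11.84 on the 5 fine arrays and 11.06, 11.25, 11.28, 11.41 and 11.20 on the 5 ultrafine arrays, a difference of 0.69 with a standard error of 0.09 (adjusted p 0.000577, limma). The beta-tubulin gene Tubb4b stood at 0.37 (adjusted p 0.00634, limma). Ultrafine 8 read 8.13 for Tuba4a and 8.44 for Tubb4b, far below all others, and neither was called in the 27 arrays (adjusted p 0.113 and 0.304, limma). Of the rest, Tubb5 stood at 0.39 in the 19 arrays and -0.09 in the 27 (adjusted p 0.215 and 0.947, limma), and Tubb2a and Tubb2b at -0.08 and -0.05 in the 19. Tubulin transcripts are alike in sequence, and which of them each probe reads was not tested.

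Fbxl22, which encodes an F-box protein of the sarcomere's Z-disc, read 10.58, 10.46, 10.48, 10.39 and 10.37 on the 5 fine arrays and 9.51, 9.79, 10.06, 9.75 and 9.50 on the 5 ultrafine arrays. The difference was 0.73 with a standard error of 0.11 and no overlap (adjusted p 0.00159, limma). With all 14 it was 0.80 (adjusted p 0.0206, limma), with ultrafine 8 among the fine values at 10.48, and the call was lost without fine 1, 2, 4 or 5 or ultrafine 2, at an adjusted p of up to 0.0767. Lmod3, which encodes an actin-filament nucleator of muscle, stood at 0.40 (adjusted p 0.00785, limma), and the small heat shock protein gene Cryab, which stood at 0.30 (adjusted p 0.0496, limma), was called in 3 of 10 fits without 1 array (adjusted p up to 0.136, lost without fine 1, 4, 5 or 6 or ultrafine 1, 3 or 6). Lmod3 and Cryab stood at 0.39 each in the 27 arrays and were not called (adjusted p 0.17 and 0.311, limma). They were the 2 called of 21 sarcomere genes in the 19 arrays, beside 0.575% of all probes called higher. The list's median was 0.08 in the 19 arrays and 0.25 in the 27.

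Itgb1bp2, Cav3 and Perm1, chosen after their values were seen, were called higher with fine particles in the 19 arrays. Itgb1bp2, which encodes melusin, a muscle protein that binds integrin, read 11.40 to 11.62 on the 5 fine arrays and 11.07 to 11.23 on the 5 ultrafine arrays, a difference of 0.32 (adjusted p 0.00578, limma). Cav3, the caveolin gene of muscle, stood at 0.30 (adjusted p 0.0237, limma) and Perm1, a regulator of mitochondrial genes in muscle, at 0.38 (adjusted p 0.0472, limma). The call of Cav3 was lost without fine 1, 4 or 5 or ultrafine 4 or 6 (adjusted p up to 0.0727), and that of Perm1 held in 2 of 10 fits, those without fine 5 or ultrafine 5 (adjusted p up to 0.122). The 3 stood at 0.81, 0.61 and 0.59 in the 27 arrays and were not called (adjusted p 0.156, 0.179 and 0.167, limma). Acta1, the skeletal actin gene that fetal and loaded hearts express, stood at 0.90 with a standard error of 0.28 (adjusted p 0.133, limma), and the natriuretic peptide gene Nppb at 0.66 with a standard error of 0.20 (adjusted p 0.132, limma). Neither passed in either fit, and 0 of the 10 fetal and hypertrophy genes were called in the 19 arrays, with 2 higher and 2 lower at an unadjusted p under 0.05, beside 13.0% of all probes. Nppa, the other natriuretic peptide gene, differed by -0.14 with a standard error of 0.38 and Myh7, the slow myosin gene, by 0.03 with a standard error of 0.06.

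The list named for voltage-gated channels also holds other ion channel genes and genes of channel subunits. Among its 15 measured genes, 2 were called in the 19 arrays, both higher with fine particles, beside 0.575% of all probes, and the median was 0.03. In the 27 arrays 0 were called in limma, with 4 at an unadjusted p under 0.05, where 12.1% of all probes reached it. Hcn2 and Kcnip2 stood at 0.69 and 0.78 there (adjusted p 0.0657 and 0.125, limma). Hcn2, a pacemaker channel gene, read 7.16, 7.16, 7.38, 7.02 and 7.22 on the 5 fine arrays and 6.54, 6.43, 6.80, 6.79 and 6.61 on the 5 ultrafine arrays, a difference of 0.55 (adjusted p 0.0321, limma). Kcnip2, a subunit of the channel for transient outward potassium current, stood at 0.49 (adjusted p 0.049, limma). Fine lay above ultrafine without overlap for both. Each was called in 3 of the 10 fits without 1 array and lost without fine 1, 3, 4 or 6 or ultrafine 1, 3 or 6, with an adjusted p of up to 0.100 for Hcn2 and 0.123 for Kcnip2.

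Other genes called higher in the 19 arrays stood outside these groups. Slc25a29, which encodes a carrier of basic amino acids into mitochondria, was higher by 0.64 with a standard error of 0.07 (adjusted p 0.000114, limma), at 7.36 to 7.56 on the 5 fine arrays against 6.70 to 6.90 on the 5 ultrafine arrays. Ultrafine 8 read 7.73, above every fine array, and the 27-array difference of 0.55 did not pass (adjusted p 0.108, limma). Atcay, best known from neurons, was higher by 0.68 (adjusted p 0.00791, limma), Ddn, encoding dendrin, by 0.43 (adjusted p 0.000547, limma) and Vldlr, a lipoprotein receptor gene, by 0.45 (adjusted p 0.000903, limma), each without overlap and each called in all 10 fits of the 19-array set that left out 1 array. Wfdc1, encoding a secreted protein, and Sctr, the secretin receptor gene, were higher by 0.49 and 0.46 (adjusted p 0.0309 and 0.0256, limma), and Apln, encoding the peptide apelin, by 0.36 (adjusted p 0.0253, limma). The last 3 were called in 4, 5 and 5 of the 10 fits without 1 array, all 3 being lost without fine 1 or 4 or ultrafine 3, with an adjusted p of up to 0.0912. Vldlr, Wfdc1, Sctr and Apln stood at 0.69, 0.78, 0.50 and 0.49 in the 27 arrays and were not called (adjusted p 0.0657, 0.0802, 0.0781 and 0.137, limma).

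In the 19 arrays 3 genes of the hypoxia list were called higher, beside 0.575% of all probes, where the list of 17 had a median of 0.02: Hk2, the repressor gene Bhlhe40 at 0.48 (adjusted p 0.0201, limma) and the mitochondrial protein gene Higd1a at 0.34 (adjusted p 0.0421, limma). Of the 17, 9 had a positive and 8 a negative difference. The largest in size was that of Ddit4, which was lower and not called. It stood at -0.69 in the 19 arrays and -0.70 in the 27 (adjusted p 0.106 and 0.0657, limma). Bhlhe40, also a clock-linked gene, was the only call among 11 measured clock genes, beside the same 0.575% of all probes. Its groups overlapped at fine 1 and ultrafine 6, and its call was lost without fine 4, 5 or 6 or ultrafine 1 (adjusted p up to 0.062). That of Higd1a held in 2 of the 10 fits, those without fine 4 or ultrafine 5 (adjusted p up to 0.102). Bhlhe40 and Higd1a stood at 0.47 and 0.60 in the 27 arrays and were not called (adjusted p 0.197 and 0.309, limma). The clock genes Per1, Dbp and Nr1d1 differed by -0.28, 0.07 and 0.21 with standard errors of 0.20, 0.08 and 0.21.

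Genes called lower beyond the groups above included Epb41, Rnase1 and Parp2, which were called in both fits. Epb41, which encodes a protein of the membrane skeleton, read 10.25, 10.18, 10.09, 9.85 and 10.19 on the 5 fine arrays and 10.60, 10.60, 10.55, 10.88 and 10.68 on the 5 ultrafine arrays. Across all 14 it ran from 9.85 to 10.54 and from 10.55 to 11.21, without overlap, and differed by -0.56 with a standard error of 0.09 (adjusted p 0.0101, limma). Rnase1, encoding a secreted ribonuclease, differed by -0.45 in the 27 arrays (adjusted p 0.0101, limma) and Parp2, a DNA repair gene, by -0.29 (adjusted p 0.0206, limma), also without overlap. The calls of Epb41 and Rnase1 held in every fit of either set that left out 1 array, and that of Parp2 was lost in the 27-array fit without fine 1, 4 or 5 (adjusted p up to 0.0861). Penk, which encodes the enkephalin precursor, stood at -0.69 in the 19 arrays (adjusted p 0.0199, limma), and lost the call without fine 4, 5 or 6 or ultrafine 3 or 6 (adjusted p up to 0.0584). Colq, the collagen tail of acetylcholinesterase, stood at -0.59 (adjusted p 0.00834, limma). Penk and Colq stood at -0.35 and -0.31 in the 27 arrays and were not called (adjusted p 0.598 and 0.419, limma).

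For Cptp and Ndufs6-ps1 the fine mean was farther from filtered air than the ultrafine mean. Cptp, which encodes a lipid transfer protein, read 7.00, 7.10, 6.95, 6.89, 6.84 and 6.82 on fine 1 to 6, above every ultrafine array, which ran from 6.34 to 6.74 with a median of 6.52. The difference was 0.42 with a standard error of 0.07 in the 27 arrays (adjusted p 0.0101, limma), and it was called in every fit of either set that left out 1 array. Against filtered air the fine mean was higher by 0.31 and the ultrafine mean lower by 0.12. Ndufs6-ps1, named as a pseudogene of a respiratory chain subunit, stood at 0.48 (adjusted p 0.0227, limma), with the fine mean 0.29 above and the ultrafine mean 0.19 below filtered air. It lost its 27-array call without fine 1, 3, 4 or 5 or ultrafine 1 or 2 (adjusted p up to 0.0892). For Myo16, an unconventional myosin gene, the means were about equally far, 0.16 above and 0.17 below. It stood at 0.33 (adjusted p 0.0116, limma, and 0.0536 without fine 5).

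The 19 arrays did not call 5 named genes that were called in the 27 arrays. Ncl, encoding nucleolin of the nucleolus, ran from 7.82 to 8.14 with a median of 7.92 on the fine arrays and from 7.93 to 8.74 with a median of 8.42 on the ultrafine arrays. Only ultrafine 5 lay among the fine values, and the difference was -0.48 (adjusted p 0.0227, limma), against -0.34 in the 19 arrays (adjusted p 0.122, limma). Sat1, a polyamine-degrading enzyme gene, stood at -0.57 in the 27 arrays, Retnla, a resistin-like protein gene, at -0.23, Sra1, a steroid receptor coactivator gene, at 0.26, and Mix23, a mitochondrial protein gene, at 0.27 (adjusted p 0.0463, 0.048, 0.0341 and 0.029, limma). Their signs did not change in the 19 arrays, and Retnla was dim, at 5.62 to 6.08 on the 14 fine and ultrafine arrays. Each of the 5 lost its call in at least 6 of the 14 fits without 1 array, among them those without fine 2, fine 4, fine 5, ultrafine 2 or ultrafine 3, with an adjusted p of up to 0.162.

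Many gene lists held no called member. In the 19 arrays 0 were called of 47 genes of the respiratory chain and ATP synthase, of 15 of the tricarboxylic acid cycle, of 28 collagens and matrix genes, of 28 inflammatory genes and of 15 interferon-responsive genes. At an unadjusted p under 0.05, in limma, these lists held 3, 0, 4, 5 and 0 members, beside 13.0% of all probes. Their medians were 0.02, -0.04, 0.02, -0.07 and 0.04. Of 21 genes of cholesterol synthesis and uptake 19 had a positive difference, with a median of 0.08 and 7 at an unadjusted p under 0.05, all higher, and 0 called. Such a lean was not particular to this list. Of 56 cytosolic and 48 mitochondrial ribosomal protein genes 45 and 38 had a positive difference, with medians of 0.09 each and 0 called. At an unadjusted p under 0.05 they held 8 and 9 members, all higher, beside the same 13.0%. The median of the cytosolic list was -0.05 in the 27 arrays. Among 17 macrophage and complement markers Cd163, a scavenger receptor gene, was the only call, beside 0.549% of all probes called lower. It stood at -0.30 (adjusted p 0.0472, limma, lost in 8 of 10 fits without 1 array, all but those without ultrafine 4 or 5). The markers C1qa and C1qb differed by -0.01 and -0.12.

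**Figure D4:**
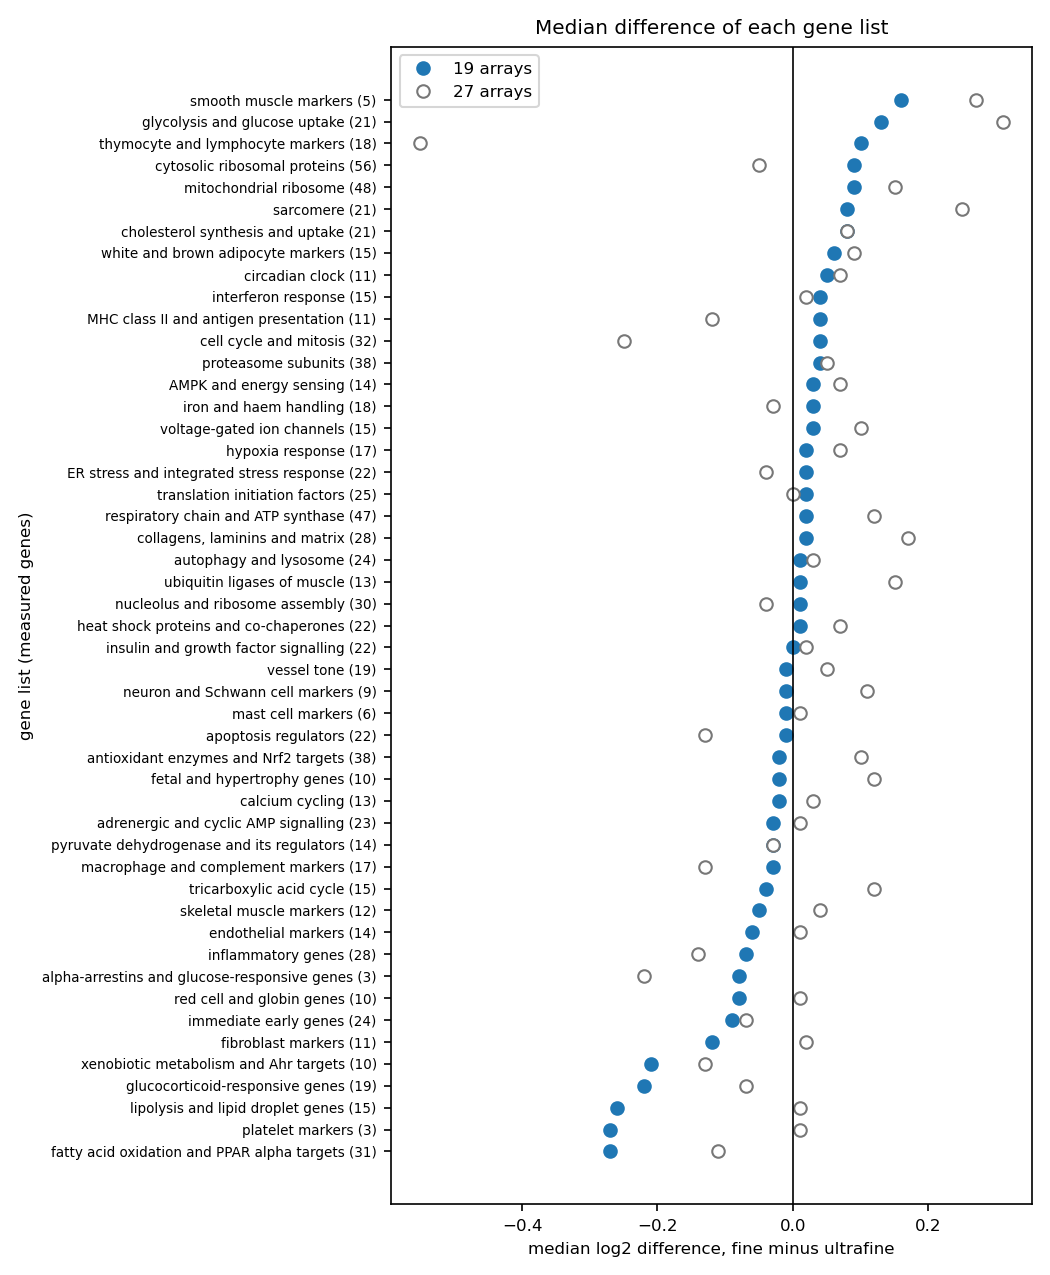
Each row is a gene list with its number of measured genes, and points give the median log2 difference, fine minus ultrafine, in the 19 arrays (filled) and in the 27 arrays (open). The fatty acid oxidation list lies lowest in the 19 arrays at -0.27, level with the 3 platelet markers, and the glycolysis and glucose uptake list stands at 0.13, while the lymphocyte list moves from -0.55 in the 27 arrays to 0.10 in the 19.

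Markers of other cells held few calls. The 18 measured lymphocyte genes all had a negative difference in the 27 arrays, with a median of -0.55. In the 19 arrays 15 of 18 had a positive one, with a median of 0.10. In limma 0 were called in either fit and 0 reached an unadjusted p under 0.05, where 12.1% and 13.0% of all probes did. In the 19 arrays 0 were also called of the red cell, platelet, mast cell, fibroblast and smooth muscle markers, with 0, 0, 0, 3 and 2 members at an unadjusted p under 0.05, beside 13.0% of all probes. Of 15 adipocyte markers 2 were called in the 19 arrays, both lower (Lipe and Pnpla2), beside 0.549% of all probes. Ucp1, which was not called, is the uncoupling protein gene of brown fat. It ran from 7.96 to 10.99 on the fine arrays and from 5.58 to 10.70 on the ultrafine arrays, with a 19-array difference of 1.77. With the Ucp1 level of each array as a covariate, a fit added after the data were seen, the count in the 19 arrays was 72. Of the other adipocyte markers, Adipoq, the adiponectin gene, differed by 0.29 and Cfd, the adipsin gene, by -0.53, and neither was called. With Ucp1 as a covariate, 20 of the 55 named genes called in the 19 arrays lost the call. Values of Lipe, Pnpla2, Aqp7 and Gpihbp1 in that fit are not given here, and the part of adipose tissue in their differences was not tested.

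The 131 probes called between fine and ultrafine hearts were also placed beside filtered air. These comparisons share arrays with the main one, and the probes were chosen for their difference in it, so they give each group's place and no further support. Of the 131 probes, 88 had an ultrafine mean farther from filtered air than the fine mean, 43 the reverse, and for 108 the filtered air mean lay between them. In the 19 arrays 48 of the 131 were called between ultrafine and filtered air, where 0.669% of all probes were called and 9.2% reached an unadjusted p under 0.05. Between fine particles and filtered air 0 of the 131 were called (limma; 58 at an unadjusted p under 0.05, where 12.1% of all probes reached it), and 0.0% of all probes were called. Over all probes, the share at an unadjusted p under 0.05 was thus larger for fine than for ultrafine particles against filtered air.

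Coarse hearts were set beside both for the same probes. Between fine and coarse particles 24 of the 131 were called, beside 0.266% of all probes. Between ultrafine and coarse particles 0 were called (limma; 22 at an unadjusted p under 0.05, beside 5.51% of all probes), with 3 coarse arrays left to compare. Pdk4 had a mean of 7.84 in filtered air, 7.92 with fine, 9.54 with coarse and 9.65 with ultrafine particles, with SDs of 0.50, 0.23, 0.46 and 0.44. Slc2a4 had means of 9.80, 9.88, 9.23 and 9.12 in the same order, and Tuba8 means of 8.79, 9.01, 8.25 and 8.12. Ucp3 and Cldn5 differed in their order: coarse arrays stood at 6.23 and 8.19, nearer to filtered air at 6.05 and 8.08 than to ultrafine at 6.65 and 8.67.

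**Figure D5:**
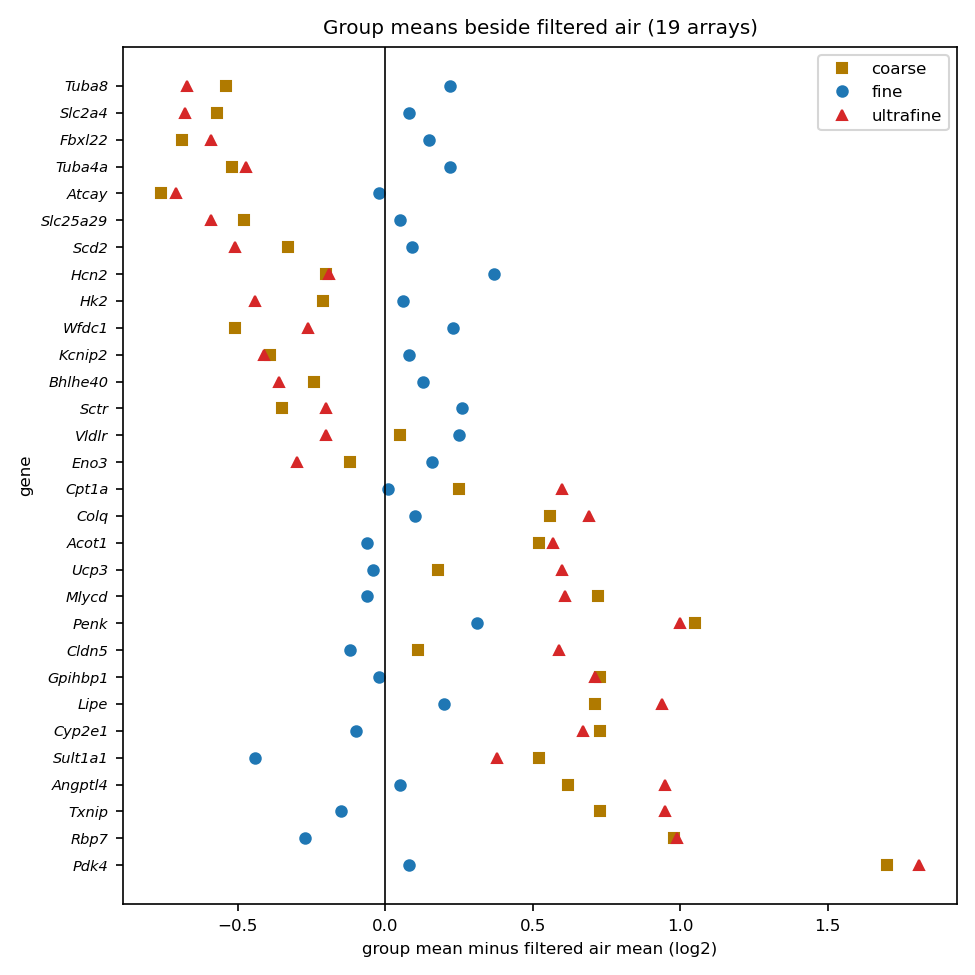
Points give the mean log2 level of the coarse, fine and ultrafine arrays minus the filtered air mean in the 19-array set, for the 15 highest and 15 lowest called genes. Fine points lie between -0.44 and 0.37 of filtered air, and the ultrafine points lie farther from it than the fine points for all but Hcn2, Sctr, Sult1a1 and Vldlr, with Pdk4 at 1.81.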

How the data were processed

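Heart RNA of 27 rats was measured on Illumina rat bead arrays. The deposited table holds log2 values for 22226 probes, normalized by the authors so that sorted values differ between arrays by at most 0.0185; lumi 1.5.17 is named per the submitters' processing notes, while the background correction and whether the transform was plain log2 or variance-stabilizing are not stated in those notes. Values run from 5.12 to 14.17. Of the probes, 13192 had 1 gene symbol, 0 several and 9034 none, in the platform annotation; 13151 symbols were updated through gene IDs of RefSeq on GRCr8 and 41 were kept as given. The 11657 probes of highest mean (5.79 or more) were tested, 8031 of them with a symbol, for 7952 genes.

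Differences were fitted with limma 3.58.1 (R 4.3.3) over all 4 groups, which share 1 estimate of the spread, with Benjamini-Hochberg adjustment over all 11657 probes and a threshold of 0.05. The fit was run on 27 arrays and on the 19 left when arrays were removed whose lymphocyte marker mean lay more than 3 scaled median absolute deviations above the median or whose median correlation was under the lower quartile less 1.5 interquartile ranges. The plan had named 20 arrays; the written rule also removed coarse 5, which is in neither group of the main comparison. Precision is set by how many arrays each group has; no depth is known for a bead signal. Tested on simulated data, the 27-array fit called 62% of the probes given a shift of 0.5 and 94% given a shift of 1, with 7 false calls, and the 19-array fit 85% and 99%, with 10 false calls. Those simulations held independent noise and no array that stood apart.

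The members and gene lists were chosen with earlier results of these data known. Named genes, 1 probe each by the smallest p, were the 15 highest and 15 lowest called in each fit (27 arrays: filled with folds over 1.5 at an adjusted p under 0.25), and in each list up to 4 called members, or 3 with the smallest p. Cav3, Cd36, Idh1, Itgb1bp2, Nppa, Perm1, Slc27a1, Tubb4b, Eno1, the defining markers and the further list members given as values were chosen after their values were seen. Alternatives covered the filter, scaling, array weights, covariates, a replicate block, the 2 groups alone, thresholds and leaving out each array.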

Additional observations from a re-analysis of the deposited data

Results flagged for a closer look

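In groups of 4 to 10 arrays, a called gene's highest or lowest array was singled out when its gap to the next, divided by the group's range, passed Dixon's 95% critical value. This was so in 18 of 120 groups tested. The limit passes about 1 in 20 groups by chance, but these groups share arrays, and ultrafine 7 and 8 were already known to stand apart. The count is therefore not read against that rate. Ultrafine 7, which carried the highest lymphocyte marker mean, was the lowest array for 10 genes: Aqp7 (8.05), Cpt1a (7.43), Cryab (12.58), Hcn2 (5.73), Kcnip2 (8.28), Myo16 (5.43), Penk (9.06), Perm1 (9.59), Pnpla2 (7.91) and Tuba8 (7.41). Ultrafine 8, which had 260 probes far below the other arrays, was the lowest for Cd36 (8.32), Eno3 (7.57), Higd1a (6.46), Tuba4a (8.13) and Tubb4b (8.44), and the highest for Lmod3 (7.45) and Slc25a29 (7.73). Both arrays are outside the 19. Fine 1 was the highest fine array for Tuba4a (12.15).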

How the results depend on the processing

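The count of called probes was 23 in the 27 arrays. It was 13 over the brighter of the kept probes, 58 with cyclic loess, 815 with array weights, 51 with a replicate block, 158 with the lymphocyte mean as a covariate, 5 with the fine and ultrafine arrays fitted alone and 131 without the arrays that stand apart. At a fold over 1.5 it was 5 at a false discovery rate under 5% and 67 under 25%. Leaving out 1 array gave 7 to 168. The count was 131 in the 19 arrays. It was 1210 with array weights, 72 with Ucp1 as a covariate (chosen after seeing the data), 52 with the 2 groups alone, and 26 and 36 at those fold thresholds. Leaving out 1 array gave 54 to 446. The remaining alternatives gave 16 to 31 and 97 to 140, the latter with the replicate block. The labels do not say whether replicate numbers pair the arrays. Same-number correlations of deviations ran from -0.17 to 0.49 in the 27 arrays, and 2 of 6 arrays correlated best with their own number. With so few pairs these correlations cannot decide whether arrays of the same number share a chip or a day.

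Of 470 recomputed values of the 19 genes called in 27 arrays, 353 kept their sign and call and 117 lost the call. Of 1148 values of the 55 genes called in 19 arrays, 911 kept both and 237 lost the call. With the fine and ultrafine arrays fitted alone, without the spread of the other groups, 14 of the 19 genes and 22 of the 55 lost the call. No sign turned among the recomputed values of these called genes. In the 27 arrays, where they were not called, Ech1 turned from 0.10 to -0.47 with array weights and -0.48 without the arrays that stand apart, Cd36 from 0.22 to -0.43 and Scd2 from -0.04 to 0.59 without those arrays. The cause was not tested. Bead signals near 6 lie close to the lower end of the table, which limits small changes in genes such as Acot1, Ucp3, Angptl4, Rnase1, Retnla and Myo16.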
